A study of Arabidopsis thaliana with 18 samples.

Results

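S8H, BGLU42, F6'H1 and PYE are 4 Arabidopsis thaliana genes of the iron-deficiency response. S8H (AT3G12900) encodes scopoletin 8-hydroxylase, F6'H1 (AT3G13610) encodes feruloyl-CoA 6'-hydroxylase, BGLU42 (AT5G36890) encodes a beta-glucosidase and PYE (AT3G47640) encodes the bHLH transcription factor POPEYE. They were chosen by name as coumarin and iron genes, with earlier results of these data known. Counts of members called, set beside the share of all probe sets, are therefore descriptions and not tests. The members are 4 of the 13286 genes that had an array probe set of their own in the platform annotation, matched to a RefSeq locus. Each was measured by 1 probe set of the Affymetrix ATH1 array, a chip on which a set of short oligonucleotides reports the transcript of a gene.

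Iron is often present in soil as insoluble ferric oxides. Arabidopsis roots acidify the soil around them, reduce ferric to ferrous iron and take up the ferrous ion, and they also secrete coumarins, phenolic compounds that bind and reduce ferric iron. Coumarins are made from feruloyl-CoA: F6'H1 makes the precursor of scopoletin, S8H hydroxylates scopoletin to fraxetin, and BGLU42 has been linked to removal of the sugar from stored coumarin glucosides before release. PYE is a repressor among the bHLH factors that set the transcript levels of iron transport and storage genes. Phosphate can form insoluble salts with iron, and whether iron supply changed in the growth medium of these plants was not examined here. The study asked how organs respond to removal of phosphate and recover when it is returned.

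Roots and shoots were taken separately from wild-type Col-0 plants grown without genetic modification on rock wool in aerated MGRL hydroponic medium for 20 days. Mock plants then stayed 10 days in full-strength medium, starved plants spent those 10 days in medium with MES in place of sodium phosphate, and replete plants were starved plants returned to full medium for 3 days. Plants of the mock and starved groups had reached 30 days of age at harvest and those of the replete group 33, and recovery therefore cannot be told apart from age. Each of the 6 groups of organ and condition had 3 arrays that the labels call biological replicates, and the study speaks of 3 replicate experiments. Which arrays came from 1 experiment, culture or pool is not given in the sources used here, so that p-values measure the spread between these samples.

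All values below are the deposited log2 expression values, or log2 differences between group means with their standard error (SE) from the fit. The values of the 18 arrays ran from 1.33 to 13.45 with array medians of 5.88 to 5.98, and replicate arrays correlated at 0.988 to 0.996 across probe sets, which are not independent replicates. The root starved array 3 and the shoot starved array 3 lay apart from the other starved arrays of their organ on the first principal component (23.3 against 52.1 and 49.5 in roots, 13.3 against 34.3 and 34.4 in shoots), and the root replete array 1 lay apart on the second (11.4 against -30.3 and -28.5). Leaving these 3 arrays out together left 2 members called in the root response and 1 in the root recovery, as with all arrays. The shoot mock array 1 (33.5 against 13.6 and 12.2) and the shoot replete array 3 (-28.6 against 0.4 and -11.4) also differed from their groups on the second component. They were not in that set and were left out only singly. Of 5 green tissue markers 3 could be measured, and all of them were lower in mock roots than in mock shoots (PRK by -8.86, RCA by -7.12, LHCB4.1 by -6.33). The 2 measured root hair markers of 5 were higher in mock roots (EXPA7 by 5.05, EXPA18 by 4.19). Both marker results follow the organ labels, and none of the 4 listed markers of inner root tissues had a named probe set.

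S8H and BGLU42 fell in starved roots, and S8H rose again when phosphate was returned. F6'H1 and PYE had lower means in starved than in mock plants in both organs, without passing the test. A gene counts as called here where the adjusted p of limma's moderated test, corrected by Benjamini-Hochberg over all 22810 probe sets of the array, was at or under 0.001. In the root response, starved against mock, 2 of the 4 members were called, both lower, against 2.26% of all probe sets called in either direction. All 4 members had every starved root array below every mock root array, where 10.2% of all probe sets were lower with groups that did not overlap. Whole organs were sampled, so fewer cells expressing a gene and less RNA per cell cannot be told apart.

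**Figure D1:**
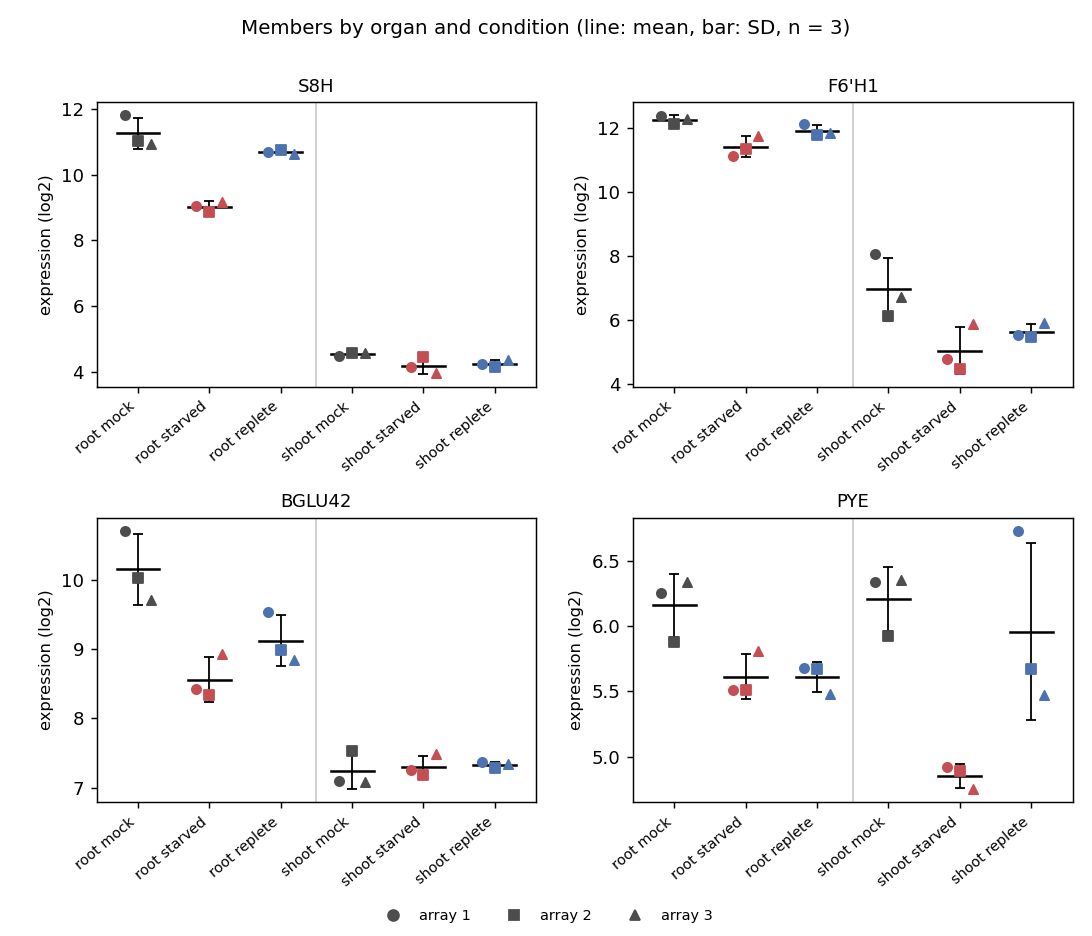
Log2 expression value (y axis) of S8H, BGLU42, F6'H1 and PYE in the mock, starved and replete groups of roots and shoots (x axis); points are single arrays and the bars mark the mean and 1 SD of 3 arrays. S8H in roots falls from a mean of 11.25 in mock to 9.03 in starved and lies at 10.68 in replete plants, while its shoot values stay between 3.97 and 4.59.

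Within coumarin synthesis, S8H carried the largest root response of the 4 members. The S8H value was 11.8, 11.02 and 10.94 in the mock root arrays. It was 9.04, 8.86 and 9.18 in the starved root arrays and 10.68, 10.74 and 10.63 in the replete root arrays. The 3 root groups did not overlap, with starved arrays lowest, replete arrays between and mock arrays highest, and the first mock array stood above the other two. The root response of S8H was -2.23 (SE 0.17, 95% CI -2.6 to -1.86, adjusted p 2.8e-07 by limma, n = 3 arrays per group), a 4.68-fold fall and the 42nd lowest of all 22810 probe sets. In the root recovery, replete against starved, S8H rose by 1.66 (SE 0.17, 95% CI 1.29 to 2.03, adjusted p 6.1e-06), which is 3.15-fold and the 89th highest; only Bonferroni correction, among the alternatives tried, removed this call.

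S8H was the only member called in the root recovery, where 5.12% of all probe sets were called. Its replete roots remained below mock roots in every array, by -0.57 (95% CI -0.94 to -0.2, adjusted p 0.09), a difference that did not pass the test and was -0.3 without the root mock array 1. In shoots S8H read 4.49, 4.58 and 4.59 in mock, 4.15, 4.45 and 3.97 in starved, and 4.24, 4.15 and 4.37 in replete arrays. All shoot arrays of S8H were thus far below all of its root arrays, and the means of its shoot groups differed by at most 0.36, with no call. The shoot response was -0.36 (95% CI -0.73 to 0.01, adjusted p 0.3), and the files used here hold no detection calls, so whether these low values are above background was not examined.

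The difference between organs was also tested for S8H, with the limit that its shoot values of 3.97 to 4.59 were not shown to be above background, so that a shoot value with no room to fall cannot be told apart from one that did not respond. Its root response minus its shoot response was -1.86 (SE 0.25, 95% CI -2.39 to -1.34, adjusted p 0.00054), and S8H was the only member called in this test, against 0.272% of all probe sets. The root recovery minus the shoot recovery of S8H was 1.59 (SE 0.25, 95% CI 1.07 to 2.12, adjusted p 0.00076), again the only call among the members, against 1.1% of probe sets. Both differences lay near the threshold. The first lost its call when any 1 of 9 arrays was left out, with an adjusted p of up to 0.0027 and values from -2.02 to -1.59, and the second when any 1 of 13 was left out, with an adjusted p of up to 0.0031 and values from 1.46 to 1.7. Both calls were also lost under Bonferroni correction. The second was lost as well with replicate number as a block in the fit, with quantile normalization within the organ, with centring on reference genes or array medians, and without the 3 arrays that lay apart.

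F6'H1, which catalyses the entry step to scopoletin, had a larger measured response in shoots than in roots, and neither was called. The F6'H1 value in mock shoots was 8.05, 6.13 and 6.71. In starved shoots it was 4.78, 4.48 and 5.86, and in replete shoots it was 5.53, 5.47 and 5.91. Whether the lowest of these shoot values are above background was not examined. Every starved array was below every mock array, by a gap of 0.27 between the nearest arrays, and the mock arrays were widely spread with the first highest. The shoot response of F6'H1 was -1.92 (SE 0.38, 95% CI -2.72 to -1.13), the 6th lowest of all probe sets in that comparison, but with an adjusted p of 0.0095 it was not called. Leaving out single arrays moved it from -2.34 to -1.38, with adjusted p from 0.0013 to 0.073, and array weights, which give noisier arrays less weight, brought it past the threshold (adjusted p 0.00063).

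In roots F6'H1 was 12.39, 12.12 and 12.28 in mock arrays, 11.12, 11.36 and 11.76 in starved arrays, and 12.12, 11.77 and 11.84 in replete arrays. The starved arrays were the lowest of the root series, with the third nearest to the replete arrays. The root response of F6'H1 was -0.85 (SE 0.38, 95% CI -1.65 to -0.05, adjusted p 0.18) and its root recovery 0.5 (95% CI -0.3 to 1.29, adjusted p 0.36), neither called. The difference between its root and shoot responses was 1.07 (adjusted p 0.28), so a difference between organs was not detected for this gene. Its shoot recovery was 0.6 (adjusted p 0.37), and its replete shoots were below its mock shoots by -1.33 (95% CI -2.12 to -0.53, adjusted p 0.071), without overlap of the arrays. Without the shoot mock array 1 this value was -0.78 and the difference between the root and shoot responses 0.53.

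For coumarin release, BGLU42 was 10.71, 10.03 and 9.71 in mock roots, 8.42, 8.33 and 8.93 in starved roots and 9.54, 8.98 and 8.84 in replete roots. Starved roots were below mock roots in all arrays, while the lowest replete array lay within the starved range. The root response of BGLU42 was -1.59 (SE 0.23, 95% CI -2.07 to -1.11, adjusted p 2e-04), a 3.01-fold fall and the 128th lowest of all probe sets. This call was lost without the root mock array 1, the root starved array 1 or the root starved array 2, with values from -1.81 to -1.31 and an adjusted p of up to 0.0021. It was also lost under Bonferroni correction and where root arrays were fitted alone.

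BGLU42 did not pass the test in the root recovery, which was 0.56 (95% CI 0.08 to 1.04, adjusted p 0.082) and 0.35 without the root replete array 1. Replete roots stayed below mock roots by -1.03 (SE 0.23, 95% CI -1.51 to -0.55, adjusted p 0.026), with a gap of 0.17 between the nearest arrays. In shoots BGLU42 was 7.09, 7.53 and 7.08 in mock, 7.25, 7.18 and 7.48 in starved, and 7.37, 7.28 and 7.34 in replete arrays. These shoot groups overlapped, and the shoot response was 0.07 (95% CI -0.41 to 0.55, adjusted p 0.94). The root response minus the shoot response of BGLU42 was -1.66 (SE 0.32, adjusted p 0.0086) and was not called.

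No member was called in replete against mock roots, where limma called 0.0658% of all probe sets. By the looser rule of an unadjusted p under 0.05, 3 of the 4 members passed, and the share of all probe sets passing it was not counted. Those 3 members, S8H, BGLU42 and PYE, had all replete root arrays below all mock root arrays, and 11.1% of all probe sets were lower in this way.

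PYE, the transcriptional regulator of the group, had a larger measured difference between starved and mock plants in shoots than in roots, and neither was called. Its value in shoots was 6.34, 5.92 and 6.35 in mock, 4.92, 4.89 and 4.75 in starved and 6.73, 5.67 and 5.47 in replete arrays. The 3 starved arrays lay close together and below every other shoot array, and the first replete array stood above the other two. The shoot response of PYE was -1.35 (SE 0.23, 95% CI -1.85 to -0.85, adjusted p 0.0039), the 41st lowest of all probe sets, and the shoot recovery was 1.1 (SE 0.23, 95% CI 0.61 to 1.6, adjusted p 0.0084), the 88th highest. Without the shoot replete array 1 the shoot recovery was 0.72 (adjusted p 0.015). Neither passed the threshold of 0.001 with all arrays, but the response passed it with array weights (adjusted p 2e-04) and without the shoot replete array 1 (adjusted p 4.6e-05), an array that enters this contrast only through the spread.

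PYE in roots was 6.25, 5.88 and 6.34 in mock, 5.51, 5.51 and 5.81 in starved, and 5.68, 5.67 and 5.48 in replete arrays. Starved and replete roots overlapped, and both lay below the mock roots by small gaps. The root response of PYE was -0.55 (SE 0.23, 95% CI -1.04 to -0.05, adjusted p 0.17) and the root recovery was 0 (95% CI -0.5 to 0.5, adjusted p 1). The root response minus the shoot response of PYE was 0.8 (adjusted p 0.19) and the root recovery minus the shoot recovery was -1.1 (adjusted p 0.033, and -0.72 without the shoot replete array 1), and neither was called.

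In the shoot response, 0 of the 4 members were called by limma, where 0.399% of all probe sets were called, and 2 members had an unadjusted p under 0.05. S8H, F6'H1 and PYE had all starved shoot arrays below all mock shoot arrays, beside 12.2% of all probe sets. In the shoot recovery 0 members were called (1 with an unadjusted p under 0.05, 0.706% of probe sets called). In replete against mock shoots 0 members were called (1 with an unadjusted p under 0.05, 0.0219% of probe sets called). The shares of probe sets called are at the adjusted threshold, and the share with an unadjusted p under 0.05 was not counted.

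**Figure D2:**
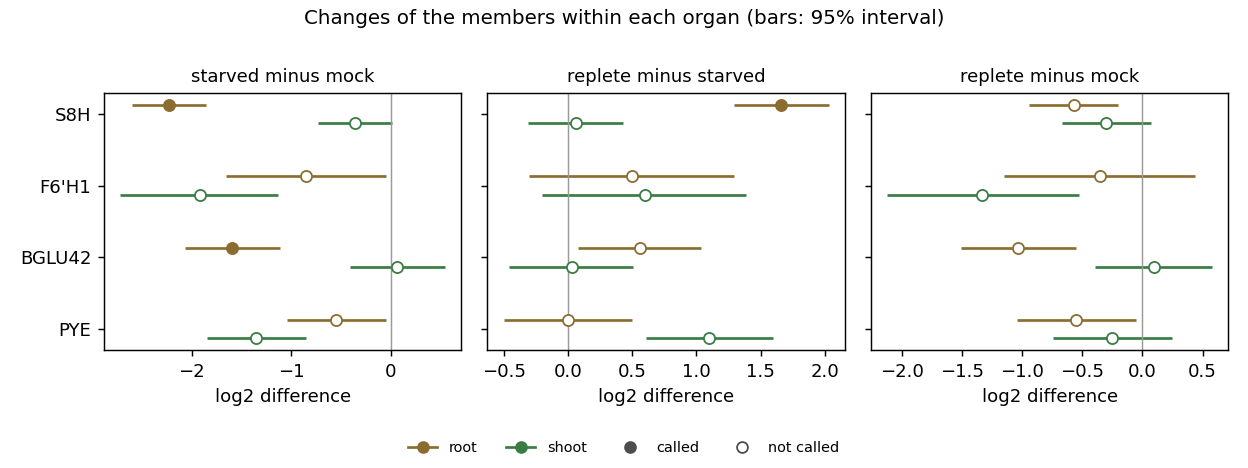
Log2 difference between group means (x axis) of the 4 genes (y axis) in the response, the recovery and the replete against mock comparison of each organ; bars are 95% confidence intervals of the limma fit and filled symbols passed an adjusted p of 0.001. The filled symbols are the root responses of S8H (-2.23) and BGLU42 (-1.59) and the root recovery of S8H (1.66).

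The 3 coumarin genes were higher in roots than in shoots in every condition. S8H was higher in roots by 6.7 in mock (adjusted p 1.2e-15), 4.84 in starved (7.4e-14) and 6.43 in replete plants (2e-15). F6'H1 was higher by 5.3 (9.9e-10), 6.37 (7.1e-11) and 6.27 (9.3e-11), and BGLU42 by 2.92 (3.7e-09), 1.26 (0.00011) and 1.79 (2.2e-06) in the same order. The S8H and F6'H1 differences rest on low shoot values (4.48 to 5.86 for F6'H1 in starved shoots) that were not examined against background, and are given as measured. These were 3 of the 4 members in each condition. Beside them, 24.4% of all probe sets were called higher in roots in mock, 28.1% in starved and 26.9% in replete plants. In either direction the shares were 42.7%, 47.1% and 45.9%, so a call between organs was common on the array. By size in mock plants, S8H was the 63rd highest of all 22810 probe sets, F6'H1 the 200th and BGLU42 the 950th. For BGLU42 the call in starved plants was lost under Bonferroni correction and with centring on reference genes, and the call in replete plants under Bonferroni correction.

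PYE was not called between organs. Its root minus shoot value was -0.05 in mock (adjusted p 0.88), 0.76 in starved (0.0092) and -0.35 in replete plants (0.21), and the starved value passed the threshold only without the shoot replete array 1 (adjusted p 0.00017) among the arrays left out singly. Ordered by mean, PYE was highest in mock shoots (6.2 ± 0.25, SD, n = 3), followed by mock roots (6.16 ± 0.24), replete shoots (5.96 ± 0.68), starved and replete roots (5.61 ± 0.17 and 5.61 ± 0.11) and starved shoots (4.85 ± 0.09). Neighbours in that order differed by less than their spread except for the last step, where starved shoots lay below all other arrays.

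The same order for S8H was mock roots (11.25 ± 0.48), replete roots (10.68 ± 0.06), starved roots (9.03 ± 0.16), mock shoots (4.55 ± 0.06), replete shoots (4.25 ± 0.11) and starved shoots (4.19 ± 0.24), with the 2 lowest groups overlapping. For BGLU42 it was mock roots (10.15 ± 0.51), replete roots (9.12 ± 0.37), starved roots (8.56 ± 0.32), and then replete, starved and mock shoots (7.33 ± 0.05, 7.3 ± 0.16 and 7.23 ± 0.26), which overlapped. F6'H1 followed the S8H order, with 12.26 ± 0.14, 11.91 ± 0.19 and 11.41 ± 0.32 in mock, replete and starved roots and 6.96 ± 0.98, 5.64 ± 0.24 and 5.04 ± 0.73 in mock, replete and starved shoots. Starved and replete shoots of F6'H1 overlapped, and its mock and replete roots met at 12.12.

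Other genes of iron supply were read from 5 lists with 72 genes in all, of which 17, the 4 members included, had a probe set of their own. These were 10 of 20 iron regulators, 6 of 10 genes of coumarin synthesis and release, and 1 of 11 genes of phenylpropanoid supply. The platform annotation used here named no gene for 8794 of the 22810 probe sets. It named no probe set for any of the 23 listed genes of iron uptake and transport or the 8 of iron storage. The reductase and the transporters of iron uptake are therefore not analysed here. This gap does not show that the array lacks these genes: the study reports FRO3, a listed reductase gene, as lower in starved roots. In the root response 4 of the 17 genes were called, all lower, where 0.706% of all probe sets were called lower, and the median of the 17 was -0.55 beside 0.03 over all probe sets. Without the 4 members, 2 of 13 were called lower and the median was -0.24. The lists, like the members, were chosen with earlier results of these data known, so these counts are a description. The count of 4 became 2 without the root starved array 1 or the root starved array 2, and lay between 2 and 5 over all arrays left out singly.

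**Figure D3:**
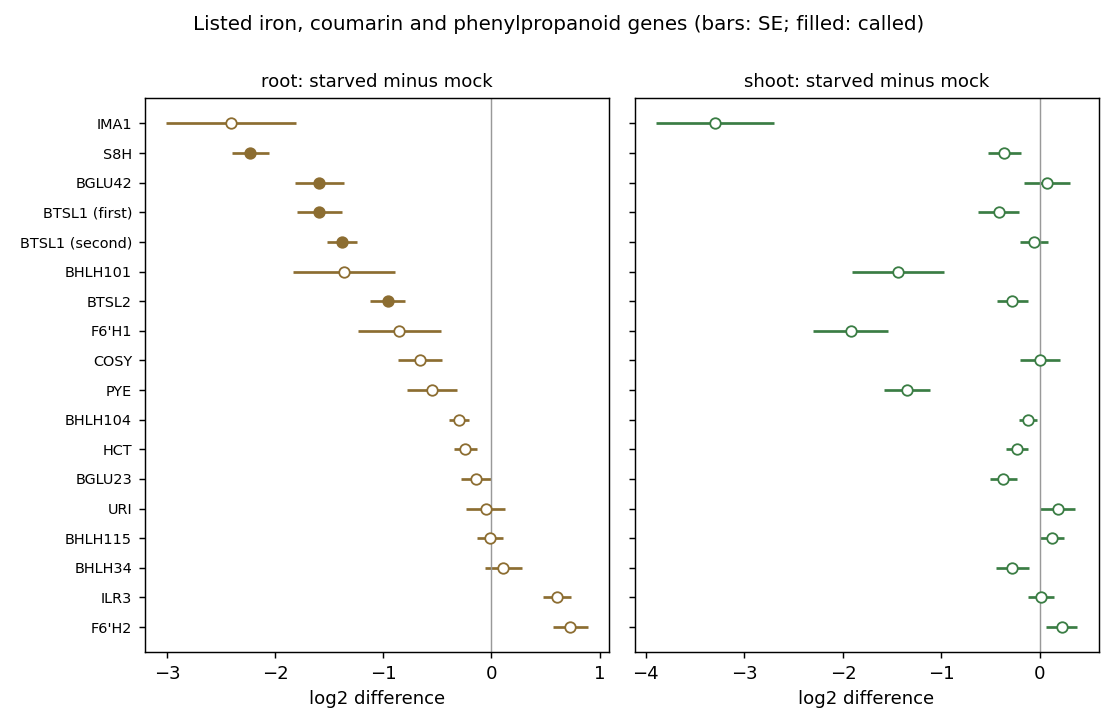
Log2 difference of starved minus mock (x axis) in roots and shoots for the 17 listed iron, coumarin and phenylpropanoid genes (y axis); bars are the SE of the limma fit and filled symbols passed an adjusted p of 0.001. BTSL1 is drawn for each of its 2 probe sets, S8H, BGLU42, BTSL1 and BTSL2 are filled in roots, no gene is filled in shoots, and IMA1 lies lowest in both organs.

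The other 2 genes called lower in starved roots were BTSL1 and BTSL2, which encode ubiquitin ligases that restrain iron uptake. BTSL1 in roots was 10.06, 9.5 and 9.56 in mock, 7.88, 7.91 and 8.56 in starved and 9.75, 9.79 and 9.38 in replete arrays. Starved roots were below both other groups, which overlapped each other. Its 2 probe sets gave root responses of -1.59 (SE 0.21, adjusted p 7.8e-05) and -1.38 (SE 0.14, adjusted p 6.3e-06), and root recoveries of 1.52 (adjusted p 7.2e-05) and 1.54 (adjusted p 1.3e-06). BTSL1 was the only listed gene beside S8H called higher in the root recovery. BTSL2 fell by 0.96 in the root response (log2, SE 0.16, adjusted p 0.00073), and its root recovery was 0.78 (adjusted p 0.002).

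IMA1, which encodes a short peptide that promotes iron uptake, was 7.63, 7.04 and 8.24 in mock roots, 4.98, 4.67 and 6.04 in starved roots and 8.11, 7.02 and 6.69 in replete roots. In shoots IMA1 was 8.89, 7.61 and 9.09 in mock, 5.13, 5.19 and 5.36 in starved and 8.8, 6.16 and 6.21 in replete arrays. Starved arrays were lowest in both organs and did not overlap with the others, and the first replete shoot array stood 2.62 above the mean of the other two. The shoot response of IMA1 was -3.3 (SE 0.6, 95% CI -4.57 to -2.04, adjusted p 0.0054), the lowest of all 22810 probe sets, and its root response was -2.41 (SE 0.6, adjusted p 0.016). Neither was called, and the spread between its replicate arrays was wide.

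**Figure D4:**
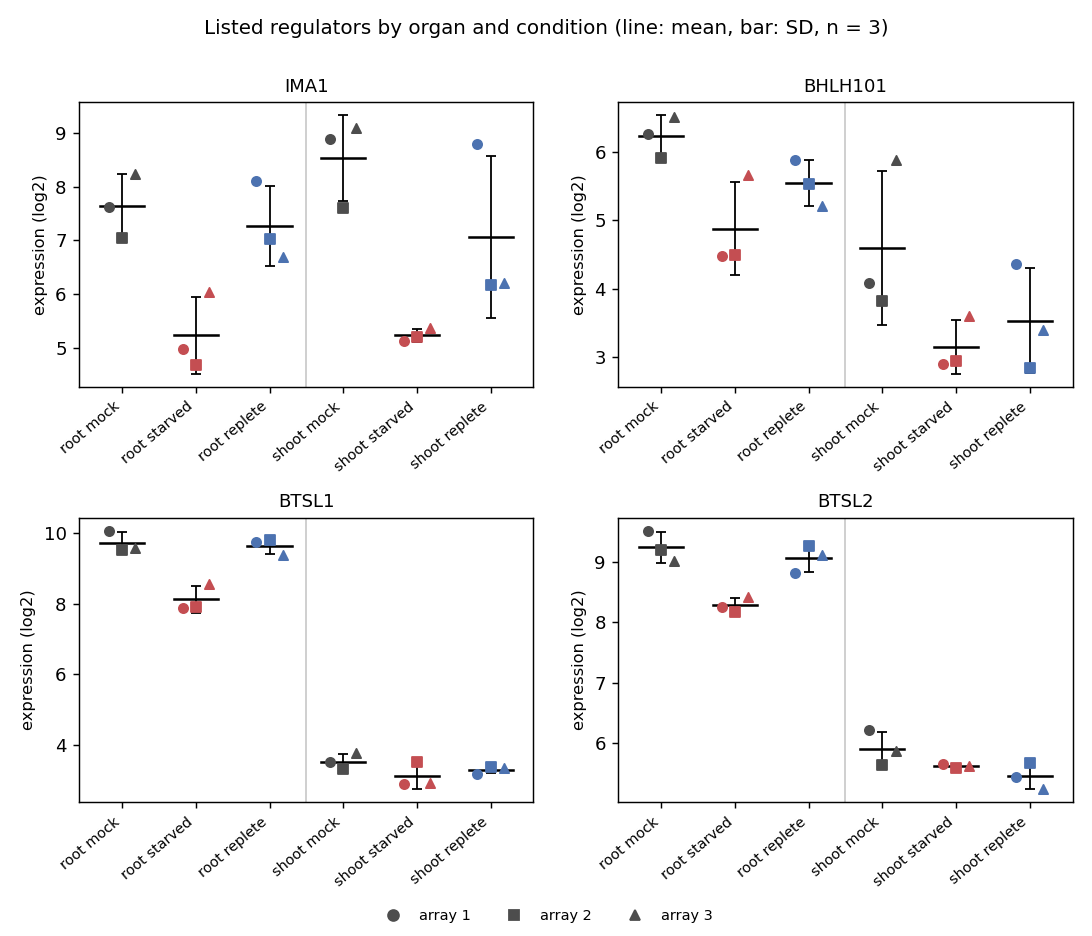
Log2 expression value (y axis) of the iron regulators IMA1, BHLH101, BTSL1 and BTSL2 in the mock, starved and replete groups of roots and shoots (x axis); points are single arrays and the bars mark the mean and 1 SD of 3 arrays. Starved roots have the lowest mean of the root groups for each of these genes, and 1 replete shoot array of IMA1 stands apart at 8.8.

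Among the remaining regulators was BHLH101, a bHLH factor that activates iron uptake genes, whose starved shoot arrays of 2.9 to 3.61 were not examined against background. BHLH101 had differences of -1.36 in roots (SE 0.47, adjusted p 0.082) and -1.44 in shoots (SE 0.47, adjusted p 0.1). ILR3, a bHLH factor that acts upstream of this group, had a difference of 0.61 in roots (SE 0.13, adjusted p 0.005), opposite in sign to the members. The related BHLH104 was at -0.3 (adjusted p 0.037), while BHLH34 (0.11), BHLH115 (-0.01) and URI (-0.05) were near 0 in roots. No iron regulator other than BTSL1 and BTSL2 was called in the root response.

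Of the 3 coumarin genes that are not members, COSY, an acyltransferase gene of coumarin ring closure, had a root response of -0.66 (SE 0.2, adjusted p 0.045). F6'H2, a paralogue of F6'H1, had a root response of 0.73 (SE 0.16, adjusted p 0.0084). This was not called, and the groups overlapped (lowest starved array 6.44, highest mock array 6.48). F6'H2 fell in the root recovery by 1.11 (log2, SE 0.16, adjusted p 0.00015), which was called. F6'H2 was thus opposite in sign to F6'H1 in both root comparisons, neither of which was called for F6'H1. The probe sequences were not examined, so signal shared between the paralogues was not tested. BGLU23, a beta-glucosidase of root endoplasmic reticulum bodies, was at -0.14 (adjusted p 0.61). HCT, an acyltransferase gene of phenylpropanoid supply, was at -0.24 (adjusted p 0.23).

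In the root recovery the 17 genes had 2 called higher (S8H and BTSL1) and 1 called lower (F6'H2), with a median of 0.41 beside -0.05 over all probe sets, of which 2.35% were called higher and 2.78% lower. Without the 4 members, 1 of 13 was called higher and 1 lower, with a median of 0.22. In the shoot response limma called 0 of the 17, with a median of -0.28 beside 0. An unadjusted p under 0.05 was reached by 5 of them, and the share of all probe sets reaching it was not counted. In mock plants 11 of the 17 were called higher in roots and 0 lower, with a median of 1.6 beside 0.06, where 24.4% of all probe sets were called higher in roots. Without the members this was 8 of 13. All 6 coumarin genes, 3 of them members, were called higher in roots in each of the 3 conditions, beside 24.4% of all probe sets in mock, 28.1% in starved and 26.9% in replete plants.

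Other tissue markers also moved in roots. For the 2 measured root hair markers, the log2 of their summed unlogged values was 9.26 to 9.66 in mock, 9.9 to 10.16 in starved and 8.57 to 8.83 in replete roots. Both markers fell in the root recovery (EXPA18 by 1.43 and EXPA7 by 1.2 on the log2 scale). Their summed levels in starved roots lay above those in mock roots, opposite in direction to S8H, but neither marker was called in the root response (EXPA18 0.67, adjusted p 0.0077, EXPA7 0.42, adjusted p 0.22). For the 3 measured green tissue markers, the log2 of the summed unlogged values was 7.03 to 7.69 in mock, 6.72 to 7.18 in starved and 7.77 to 8.15 in replete roots, against 14.01 to 14.25 in shoots. In the root recovery LHCB4.1 rose by 1.23 (adjusted p 4.7e-05), while RCA was at 0.46 (adjusted p 0.066) and PRK at -0.59 (adjusted p 0.02), so the 3 markers did not share a direction. The part of tissue makeup in the values of the members was not tested.

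Across the 6 group means, the 3 coumarin genes correlated more highly with each other than with PYE. All 3 were higher in roots, and the organ difference weighs heavily in a correlation over both organs. Such a correlation does not show a shared phosphate response. The response was -2.23 in roots and -0.36 in shoots for S8H, whose shoot values were not examined against background. For F6'H1 it was -0.85 in roots and -1.92 in shoots, neither called, and no difference between organs was detected. S8H correlated with F6'H1 at 0.98 and with BGLU42 at 0.97, and BGLU42 with F6'H1 at 0.92, whereas PYE correlated with these genes at 0.21 to 0.30. Each correlation rests on 6 means from the same 18 arrays and is a description only. Among 4840 probe sets of 1 gene whose group means spanned at least 1, the closest to S8H were AT5G38820, TBL36 and AT5G06490 (Pearson's r of 0.999 each). Closest to BGLU42 were CDC27a (0.999), AT2G37810 (0.998) and AT4G32950 (0.997), and closest to F6'H1 were AT5G14520 (0.999), AT1G18210 (0.999) and AT4G18580 (0.998). The genes closest to PYE were AT1G43910 (0.862), AT1G65690 (0.859) and IMA1 (0.820). A high r leaves level and size of change aside. Group means ran only from 3.73 to 4.8 for CDC27a and from 2.68 to 4.85 for AT5G06490, values not examined against background. AT5G14520 had means of 10.1 in mock and 9.98 in starved roots, where F6'H1 had 12.26 and 11.41.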

How the data were processed

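Messenger RNA was measured on 18 single-colour Affymetrix ATH1 arrays. The deposited values are log2 expression values, which the authors made in affy, an R package, after correcting the background, normalizing by quantiles and summarizing each probe set by median polish. The affy version is not given in the sources used here. No further transformation was applied. Joint normalization of roots and shoots can shift values between organs. Of 22810 probe sets, 13513 had 1 gene in the platform annotation, 503 several and 8794 none. Of those with 1 gene, 13436 were matched to RefSeq (TAIR10.1), which gave names and loci. Members, listed genes and correlation candidates were picked by these loci, while limma was fitted to all probe sets. No coordinates or sequences are given. Of the columns of per-sample values, 0 were left unused.

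One model with 6 group means was fitted over all arrays in limma 3.58.1 in R 4.3.3 (12 residual degrees of freedom, 16.5 after moderation). All 11 comparisons used two-sided Benjamini-Hochberg adjusted p-values over all probe sets within a comparison, called at or under 0.001. The study's methods name Bonferroni correction, which was an alternative. The procedure was tested on simulated data. The precision rests on 3 arrays per group and the spread between them, and detection calls were not used here.

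The members and gene lists were chosen with earlier results of these data known. Named genes are the members, every gene of the iron, coumarin and phenylpropanoid lists with its own probe set (for several, the one with the highest mean), and the 3 genes closest to each member by Pearson correlation over group means. Alternatives covered the correction, threshold, samples fitted, replicate block, array weights, moderation, normalization, centring, low values and left-out arrays.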

Additional observations from a re-analysis of the deposited data

Results flagged for a closer look

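S8H is listed here because a test of the difference between organs passed the threshold in both phases, with shoot values of 3.97 to 4.59 that were not examined against background, so a floor in shoots cannot be told apart from a lack of response. Its root response minus its shoot response was -1.86 (SE 0.25, limma adjusted p 0.00054, n = 3 arrays per group), with starved arrays below mock arrays in both organs. Its root recovery minus its shoot recovery was 1.59 (SE 0.25, adjusted p 0.00076), with all replete arrays above all starved arrays in roots and overlapping arrays in shoots.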

How the results depend on the processing

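Under Bonferroni correction the number of members called became 1 in the root response and 0 in the root recovery and in both differences between organs. For roots against shoots it fell from 3 to 2 in starved and in replete plants, where BGLU42 lost its call. Centring on reference genes also gave 2 for roots against shoots in starved plants. At an adjusted p of 0.05 the number called became 1 in replete against mock roots, 2 in the shoot response and 1 in the shoot recovery. It became 2 in the root minus shoot response, 2 in the root minus shoot recovery and 4 for roots against shoots in starved plants, with PYE added. Fitting 1 organ alone gave 1 in the root response, and array weights gave 2 in the shoot response and 2 in the root minus shoot response. The root minus shoot recovery became 0 with quantile normalization within the organ, with centring on reference genes or on array medians, and without the 3 arrays that lay apart, a choice made after seeing the data. Leaving out 1 array at a time gave 1 to 2 in the root response, 0 to 1 in the shoot response, 3 to 4 for roots against shoots in starved plants, and 0 to 1 in the root minus shoot response and in the root minus shoot recovery. The cause of these changes was not tested. Replicate numbers were checked as pairs: deviations of same-numbered arrays correlated at -0.11 to 0.45 over 27 pairs, 13 of them over 0.1, and 18 of 27 best matches, though not all, were with the own number, a hint from the data and not the design. The sources used here do not tie a number to 1 of the 3 replicate experiments, and the numbers were not taken to pair samples because not every correlation was over 0.1. With the replicate block, the root minus shoot recovery had 0 members called (S8H adjusted p 0.0011) and 43 of 44 member values kept their call and direction. Values near 0 without a call changed sign when single arrays were left out, over ranges of -0.05 to 0.19 for the S8H shoot recovery, -0.02 to 0.22 for the BGLU42 shoot response, -0.04 to 0.11 for the BGLU42 shoot recovery, -0.19 to 0.09 for PYE in roots against shoots in mock plants, -0.59 to 0.04 for the same in replete plants and -0.51 to 0.18 for the F6'H1 root minus shoot recovery. The S8H shoot recovery also became -0.01 with array weights and -0.05 without the 3 arrays, the BGLU42 shoot response -0.02 with spike-in centring and without the 3 arrays, and PYE in roots against shoots in mock plants 0.04 with spike-in centring. Over the 30 alternatives, probe sets called in the root response ranged from 125 to 2220 (515 in the main fit), and in the shoot response from 32 to 883 (91). For the 17 listed genes, the root response count of 4 became 1 under Bonferroni and 9 at 0.05. Centring on reference genes moved the median of all probe sets by -0.13 in the root response. For roots against shoots it moved this median by -0.23 in mock, -0.38 in starved and -0.36 in replete plants. Mean values over several probe sets of a member were not run, since each member had 1.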

Other observations

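The shoot replete array 1 stood above the other replete shoot arrays for some of the iron genes. It exceeded the mean of the other two by 2.62 for IMA1, 1.24 for BHLH101 and 1.16 for PYE (log2). For S8H, BGLU42, F6'H1, ILR3 and BTSL2 the same difference was -0.02, 0.06, -0.16, 0.11 and -0.01. The root mock array 1 stood above its group mean by 0.55 for S8H and by 0.56 for BGLU42, which both fell in starved roots. These arrays were singled out after their values were seen.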
